A study of Mus musculus with 6 samples.

Results

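Levels of 6 miRNAs of blood cells were compared in flank tumours of GLE-treated and model mice. They are both arms of miR-142a (mmu-miR-142a-3p and mmu-miR-142a-5p), mmu-miR-150-5p, mmu-miR-223-3p, and both arms of miR-342 (mmu-miR-342-3p and mmu-miR-342-5p), written without the species prefix from here on. The members were taken by name among the 1881 mouse miRNAs on the array, and all 6 had probes. Of the 6, 5 were bright enough to be tested among 388 tested miRNAs, and miR-342-5p was not.

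Tumours were raised by inoculating C57BL/6 mice in the right flank with 0.1 ml of Hepa1-6 cells, a mouse hepatoma line, so both groups carry the same tumour line in hosts that keep their own blood and immune cells. The GLE group was dosed with a preparation that the labels abbreviate as GLE and do not spell out, at a daily total of 0.023 g scaled to a 10 g animal. The model group received saline, 0.2 ml once a day for 28 days, per the treatment protocol, and is marked as untreated in the sample labels. Each group had 3 samples, each the Cy3-labelled total RNA of a tumour on 1 array. Nothing in the labels says whether tumours were pooled, so p-values measure the spread between these samples. An age of 28 d is given for every sample, without saying from when it counts, and the route, the sex of the mice and the length of GLE dosing were not stated. All 6 arrays stood on 1 slide and were scanned together. Per the file headers, the 3 GLE arrays filled the first row of the slide and the 3 model arrays the second, so row and group cannot be told apart.

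A miRNA is cut from a hairpin precursor, either arm of which can yield a mature strand, and its seed (bases 2 to 8) does most of the pairing with target mRNAs. miR-142a is made throughout the blood lineages and hardly outside them. miR-150-5p rises as lymphocytes mature, and miR-223-3p is the myeloid member, abundant in neutrophils and monocytes. miR-342 is made in several kinds of blood cell and is carried in an intron of Evl, an actin regulator gene. In a whole tumour piece these miRNAs can show infiltrating or circulating blood cells, but fewer cells of a type and less miRNA per cell cannot be told apart in bulk RNA.

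The mature strands are shown because each member was read through its own sequence and the arms of one hairpin do not resemble each other. RefSeq (GRCm38.p6) held 5 of the 6 members, and miR-150-5p was not matched. Capitals mark the seed.
miR-142a-3p: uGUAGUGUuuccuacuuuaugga
miR-142a-5p: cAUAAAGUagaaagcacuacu
miR-223-3p: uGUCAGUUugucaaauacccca
miR-342-3p: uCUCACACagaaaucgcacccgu
miR-342-5p: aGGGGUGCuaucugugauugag
These 5 strands have 5 different seeds, and 0 of the other mature mouse miRNAs in that table share any of them. The 2 strands of miR-142a lie at chr11:87756903-87756925 (3p) and chr11:87756867-87756887 (5p) on the plus strand, inside the hairpin of Mir142. The strand of miR-223-3p lies at chrX:96242884-96242905, also on the plus strand, where the table has a long non-coding RNA (F630028O10Rik) spanning Mir223. The arms of miR-342 lie at chr12:108658680-108658702 (3p) and chr12:108658638-108658659 (5p), within the protein-coding gene Evl.

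The array reads these miRNAs with probes that differ in length. Those of the 5 matched members pair with the miRNA from its 3′ end and reach a varying distance towards its 5′ end. The probes of miR-342 are shown because they decide what was measured of its arms. Probe sequences are as deposited, 5′ to 3′, and capitals mark the bases added to the shortest probe of the same strand.
miR-342-3p probe of 16 bases: acgggtgcgatttctg
miR-342-3p probe of 17 bases: acgggtgcgatttctgT
miR-342-5p probe of 16 bases: ctcaatcacagatagc
miR-342-5p probe of 17 bases: ctcaatcacagatagcA
miR-342-5p probe of 18 bases: ctcaatcacagatagcAC
miR-342-5p probe of 19 bases: ctcaatcacagatagcACC
The longer miR-342-3p probe pairs with bases 7 to 23 of the miRNA and so leaves most of the seed unpaired. The longest miR-342-5p probe pairs with bases 4 to 22. The longer of the 2 probes reached base 1 of miR-142a-3p, base 3 of miR-142a-5p and base 2 of miR-223-3p.

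Levels below are on a log2 scale where 0 is the 75th percentile signal of the probes well above background on all 6 arrays. That percentile ran from 203 to 364 intensity units over the arrays, and 378 to 458 miRNAs were detected per array. Differences are GLE minus model with the SE of the limma fit, with p-values adjusted by Benjamini-Hochberg over all 388 tested miRNAs. Levels of different probes are not comparable, so each miRNA is read against itself. Precision is limited by having 3 arrays a group.

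The tested blood-lineage miRNAs stood highest in 2 of the 3 GLE tumours, and none of them passed the test. All 5 had a positive difference, with a median of 0.84 against 0.0078 over all tested miRNAs, of which 198 of 388 were positive. The largest belonged to miR-342-3p, followed by miR-150-5p, miR-223-3p and the arms of miR-142a. At a limma adjusted p under 0.05 there were 0 calls among the 388 miRNAs (0%), while 6 fell under 0.05 before adjustment (1.55%), miR-342-3p among them. In no tested member did the GLE values all lie above the model values, which happened in 18 of 388 miRNAs (4.64%).

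In GLE replicates 1, 2 and 3 miR-342-3p had levels of 2.17, 0.73 and 2.78, compared with 0.43, 0.49 and 1.14 for model replicates 1, 2 and 3. GLE replicates 1 and 3 stood well above every model tumour, and GLE replicate 2 stood between model replicates 2 and 3. The group means were 1.89 ± 1.05 (SD, n = 3) in GLE and 0.69 ± 0.39 (SD, n = 3) in model tumours. The difference of 1.21 ± 0.51 ranked first among the 388 differences and had a limma adjusted p of 0.935 (unadjusted 0.0498). Without GLE replicate 2 it was 1.79 with a limma adjusted p of 0.0467, in a fit where 2 of 388 miRNAs passed (0.515%). Without GLE replicate 1 it was 1.07 and without GLE replicate 3 it was 0.76 (limma adjusted p = 0.999 and 0.996). Its 2 probes, which differ by 1 base, gave differences of 1.20 and 1.21.

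The lymphoid member, miR-150-5p, was at −2.28, −3.31 and −1.64 in GLE replicates 1, 2 and 3, compared with −3.37, −3.49 and −2.93 in model replicates 1, 2 and 3. GLE replicate 2 again lay among the model tumours. The means were −2.41 ± 0.84 and −3.26 ± 0.29 (SD, n = 3 each), and the difference was 0.85 ± 0.41 (limma adjusted p = 0.935), or 1.80-fold with 95% bounds at 0.916-fold and 3.55-fold. This value rests on 1 of its 2 probes, that of 16 bases, since the probe of 15 bases was detected on 2 GLE arrays and 0 model arrays. Without GLE replicate 2 the difference was 1.30 (limma adjusted p = 0.0618), and without GLE replicate 3 it was 0.47 (limma adjusted p = 0.996).

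The myeloid member, miR-223-3p, stood at 0.82, −0.51 and 1.42 in GLE replicates 1, 2 and 3. In model replicates 1, 2 and 3 it was at −0.42, −0.58 and 0.21. Here GLE replicate 2 fell below 2 of the 3 model tumours. The difference of 0.84 ± 0.49 (1.79-fold, 95% bounds 0.804-fold and 3.98-fold; limma adjusted p = 0.935) had rank 6 among all tested miRNAs, next to miR-150-5p at rank 5. It was 1.38 without GLE replicate 2 (limma adjusted p = 0.0618) and 0.42 without GLE replicate 3 (limma adjusted p = 0.996).

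The pan-blood strand miR-142a-3p, which is needed for normal development of several blood lineages, was at 1.67, 1.25 and 2.09 in GLE replicates 1, 2 and 3. Its model values were 1.07, 0.86 and 1.50. The other arm, miR-142a-5p, was at −1.22, −1.94 and −0.81 in GLE tumours and at −2.03, −2.07 and −1.46 in model tumours, in the same order of replicates. In both arms GLE replicates 1 and 3 exceeded all model tumours and GLE replicate 2 stood below model replicate 3. The differences were 0.53 ± 0.27 for the 3p arm and 0.53 ± 0.33 for the 5p arm (limma adjusted p = 0.935 for each), with ranks of 31 and 30. Without GLE replicate 3 they were 0.31 and 0.27 (limma adjusted p = 0.996 for each). Without GLE replicate 2 they were 0.74 and 0.84 (limma adjusted p = 0.102 and 0.0823).

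**Figure D1:**
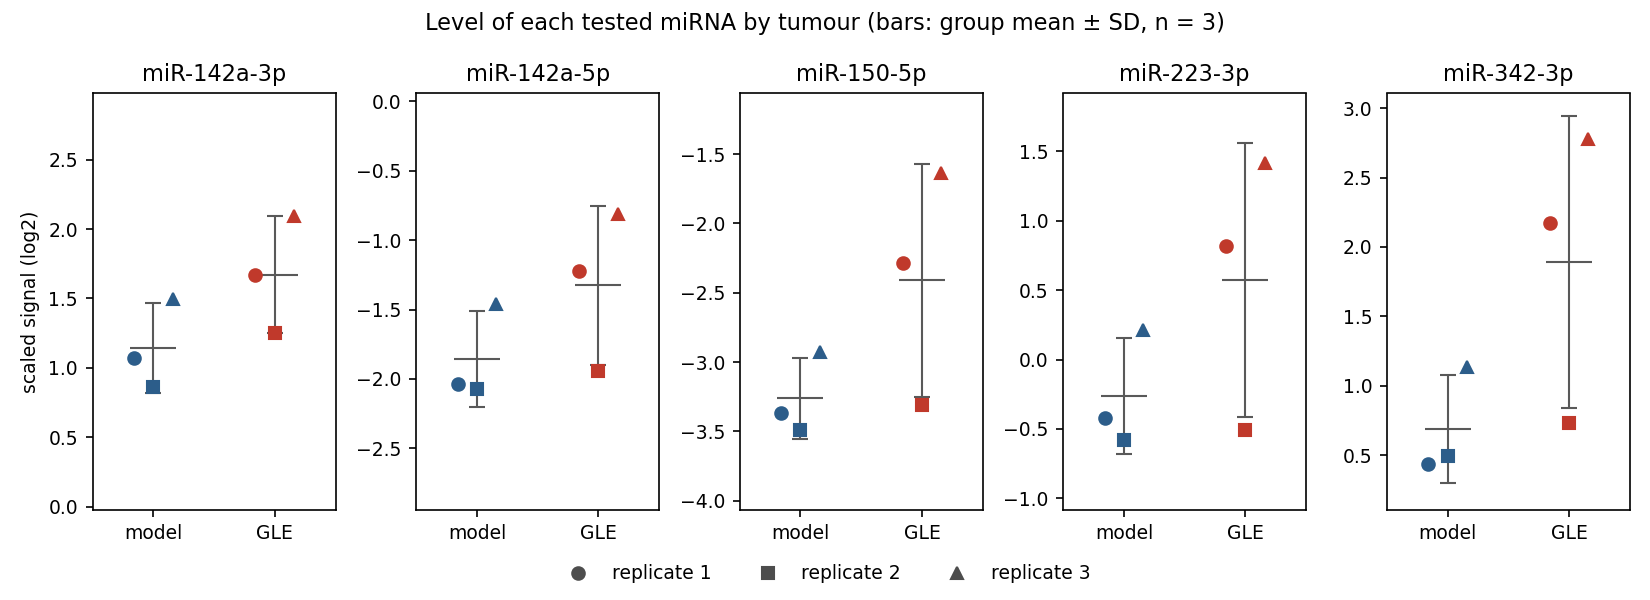
Scaled signal (log2) of the 5 tested miRNAs in each tumour, 1 panel per miRNA, with axes of equal span that start at different levels. Points are single arrays, horizontal bars the group mean and vertical bars the SD (n = 3). In every panel GLE replicates 1 and 3 stand above all model tumours and GLE replicate 2 stands among them.

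**Figure D2:**
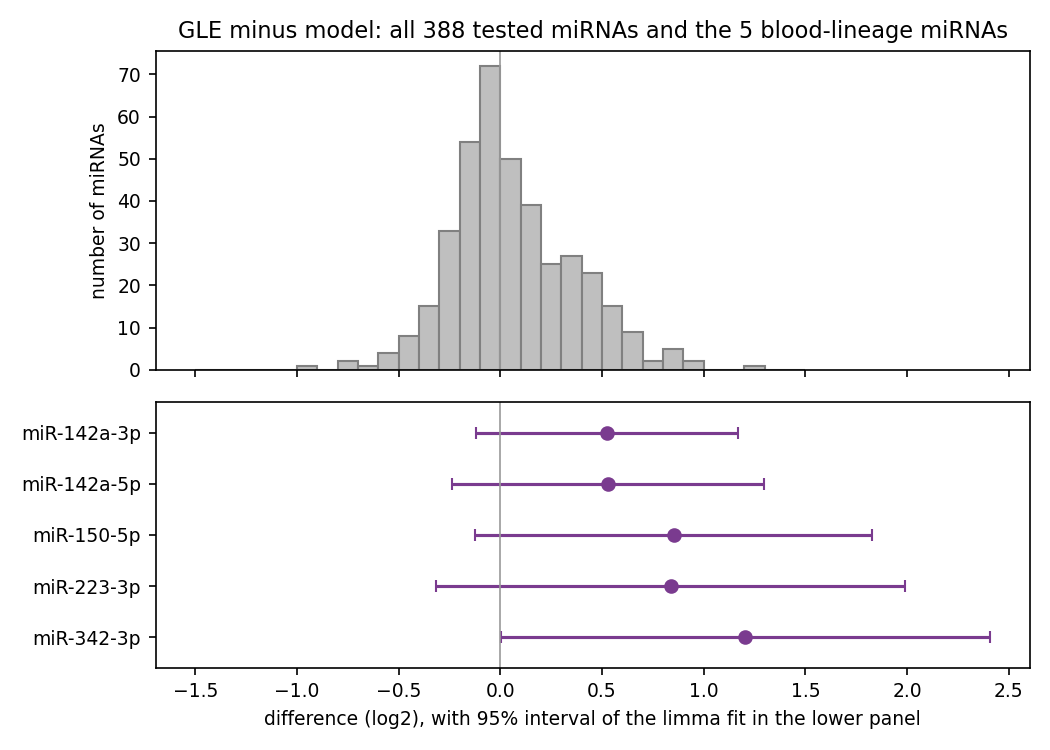
Upper panel: number of miRNAs by GLE minus model difference (log2) for all 388 tested miRNAs. Lower panel: the differences of the 5 tested blood-lineage miRNAs with 95% intervals of the limma fit. They lie between 0.53 and 1.21, to the right of most miRNAs, and 4 of the 5 intervals include 0.

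The order of the tumours was nearly the same for every tested member, and miRNAs outside the members shared it too (below). From the highest, GLE replicate 3 had rank 1, GLE replicate 1 rank 2 and model replicate 3 rank 3 in 5 of 5. GLE replicate 2 had rank 4 in 4 members and rank 5 in miR-223-3p, and model replicate 2 was lowest in 4 and second lowest in miR-342-3p. What differed was the size of the swing: from the lowest to the highest tumour, miR-142a-3p spanned 1.23, miR-142a-5p 1.26, miR-150-5p 1.85, miR-223-3p 2.00 and miR-342-3p 2.34. Relative to the model mean, miR-342-3p was 1.48 higher in GLE replicate 1, 2.09 higher in GLE replicate 3 and 0.041 higher in GLE replicate 2. All 5 varied more among GLE than among model tumours, as did 297 of the 388 tested miRNAs (76.55%).

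**Figure D3:**
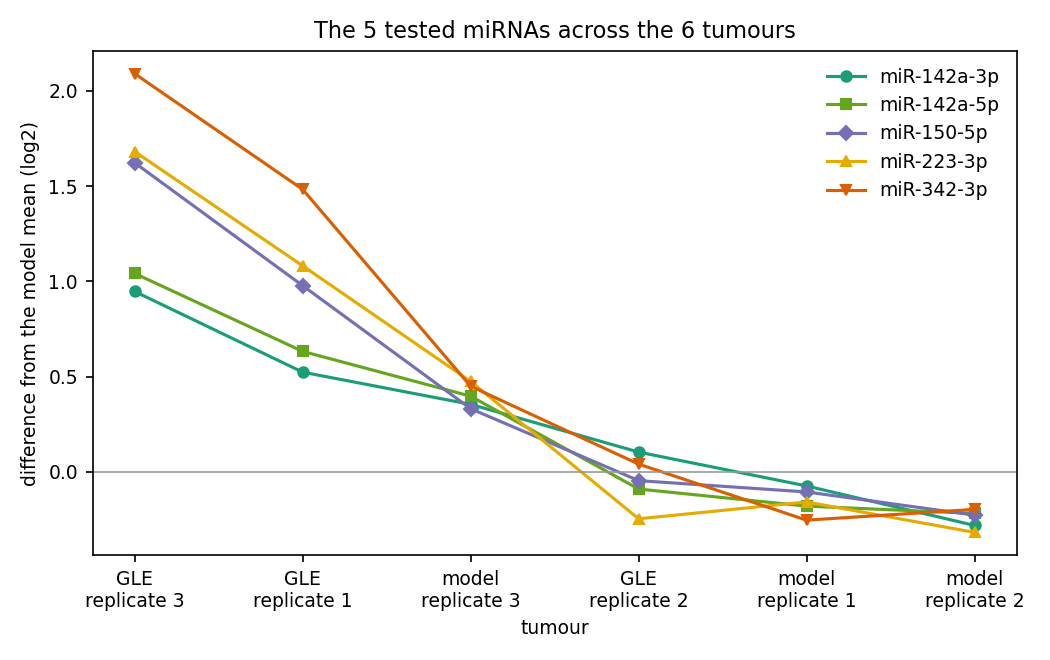
Difference from the model mean (log2) of the 5 tested miRNAs in each of the 6 tumours, which are ordered along the axis by the common order of the members. All lines fall from GLE replicate 3 through GLE replicate 1 and model replicate 3 to GLE replicate 2, and stay low in the remaining model tumours. The line of miR-342-3p is the highest in GLE replicates 3 and 1, at 2.09 and 1.48.

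Whether members differed from each other in their response was read within each array, where scaling by a constant cancels. These within-array values are set to a model mean of 0. For the arms of miR-142a (3p minus 5p) they were −0.11, 0.19 and −0.095 in GLE replicates 1, 2 and 3, compared with 0.11, −0.063 and −0.043 in model replicates 1, 2 and 3. The GLE values reached beyond the model values on both sides, and the mean shift was −0.0033 (two-sided exact permutation p = 1.0). Of these contrasts 3 were computed, and 0.1 is the smallest p that 3 arrays against 3 allow, so none could pass at 0.05.

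Between the lymphoid and the myeloid member the mean shift was near 0 under the main setting. The within-array values of miR-150-5p minus miR-223-3p were −0.10, 0.20 and −0.059 in GLE tumours and 0.053, 0.091 and −0.14 in model tumours. Their mean shift was 0.013, smaller than the SD of either group (0.16 in GLE and 0.13 in model tumours; exact permutation p = 1.0), and it changed sign under several settings, among them the normexp background (−0.36), a correction that adds an offset of 50 units to every spot.

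The largest mean shift of the 3 contrasts was that of miR-342-3p against miR-223-3p, though no contrast could pass at 0.05. The within-array values of miR-342-3p minus miR-223-3p were 0.40, 0.29 and 0.41 in GLE replicates 1, 2 and 3, compared with −0.096, 0.12 and −0.025 for model replicates 1, 2 and 3. All 3 GLE tumours lay above all 3 model tumours, GLE replicate 2 included. The mean shift was 0.37 with SDs of 0.068 in GLE and 0.11 in model tumours (exact permutation p = 0.1, the smallest possible; adjusted p = 0.3 over the 3 contrasts). When each of the other 387 tested miRNAs was set against miR-223-3p in this way, 2 had every GLE array above every model array (0.517%). They were miR-342-3p and, with a shift of 0.098, miR-511-3p. A miRNA can do so only if its GLE minus model difference exceeds that of miR-223-3p. The difference of miR-223-3p had rank 6 among all tested miRNAs, and that of miR-342-3p had rank 1. Most miRNAs could therefore not qualify, and the share does not show whether miR-342-3p is exceptional. With the authors' deposited values in place of the scanner signals the shift of miR-342-3p against miR-223-3p was 0.19.

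**Figure D4:**
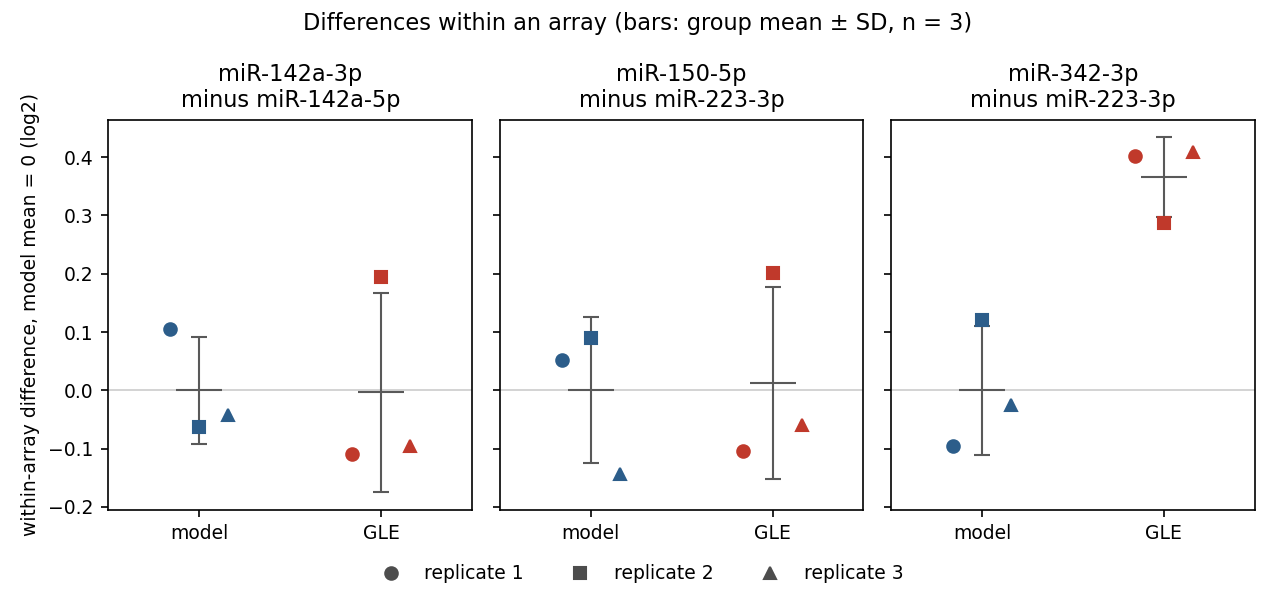
Within-array differences (log2) between pairs of members, set to a model mean of 0. Points are single arrays, horizontal bars group means and vertical bars the SD (n = 3). The groups overlap in the first 2 panels and not in the third, where GLE values run from 0.29 to 0.41 and model values from −0.096 to 0.12.

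The other arm of that hairpin, miR-342-5p, was detected through its longest probe alone, in GLE replicates 1 and 3 and in 0 of the model tumours. The unscaled signal of that probe was 19.9, 11.2 and 36.0 intensity units in GLE replicates 1, 2 and 3, compared with 5.78, 5.83 and 7.81 in model replicates 1, 2 and 3. The 3 shorter probes gave 5.64 units or less on every array. After scaling, the longest probe was at −3.35, −5.02 and −2.74 in GLE tumours and at −5.76, −5.31 and −4.75 in model tumours. In GLE replicate 2 and all model tumours it was not well above background, so these 4 values have no order. The mean of −3.70 over the GLE tumours was 1.54-fold higher than a model mean set at −4.33. That model mean came from raising the probe on each model array to the lowest signal well above background there (its measured mean was −5.27). GLE replicate 2 entered at its measured value, below the lowest such signal on its own array (−4.83), so 1.54-fold is not a lower bound. This fold compares group means and leaves out the spread between arrays: it was 1.11-fold without GLE replicate 3 and at least 2.44-fold without GLE replicate 2. With all arrays it was 1.08-fold with the normexp background and 1.32-fold with outlier spots kept.

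**Figure D5:**
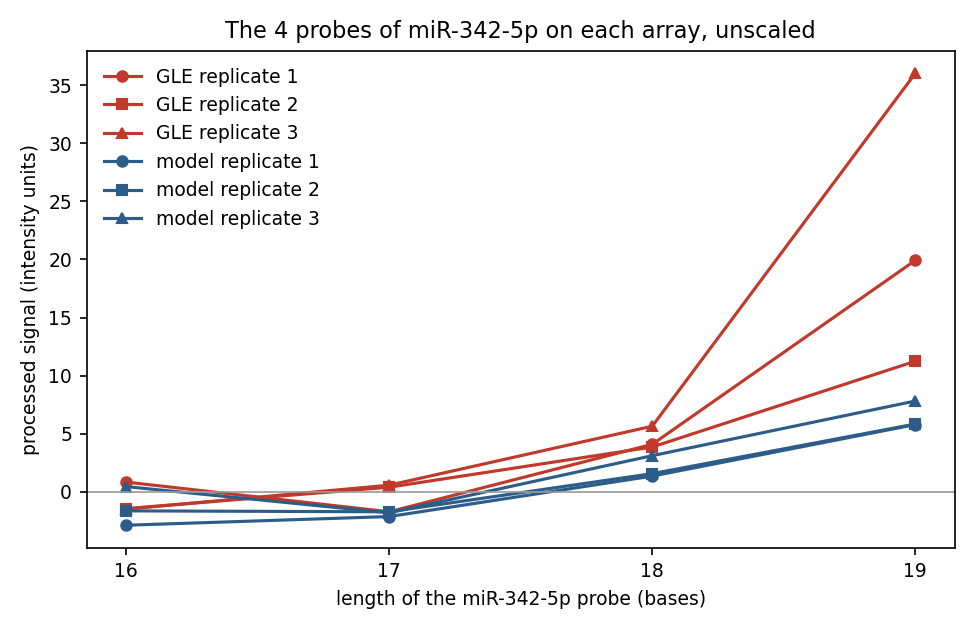
Unscaled processed signal (intensity units) of the 4 miR-342-5p probes against their length in bases, 1 line per array. The probe of 19 bases reaches 36.0 and 19.9 units in GLE replicates 3 and 1 and 5.78 to 7.81 units in the model tumours, and the shorter probes stay at 5.64 units or less.

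The opposite arms miR-150-3p and miR-223-5p, and miR-142b, the product of a separate miRNA gene (Mir142b) that spans Mir142, were detected on 0 of the 6 arrays, and the strongest probe among them reached 4.27 intensity units.

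Among 12 other miRNAs listed for blood and immune cells, though not all confined to them, 8 were tested and 0 passed in either direction. Of the 8, 7 had a positive difference, and the median was 0.24. The largest was that of miR-146b-5p (0.87 ± 0.44; limma adjusted p = 0.935). miR-181a-5p (0.017 ± 0.16) and miR-503-5p (0.035 ± 0.19) were near 0, and miR-181b-5p was the negative one (−0.15 ± 0.16). miR-155-5p, induced in activated lymphocytes and macrophages, was at −0.78, −1.47 and −0.13 in GLE tumours against −1.53, −1.78 and −1.20 in model tumours (0.71 ± 0.35; limma adjusted p = 0.935). Its difference was 0.38 without GLE replicate 3. miR-146a-5p, a brake on inflammatory signalling, was at −1.47, −1.87 and −1.05 in GLE and at −2.11, −2.26 and −1.92 in model tumours, so that its groups did not overlap (0.63 ± 0.24; limma adjusted p = 0.935). The other 2 of the 8 with no overlap were miR-21a-5p at 0.39 ± 0.18 and miR-322-5p at 0.10 ± 0.15, named after their values were seen. Such separation, in 3 of the 8 here, occurred in 4.64% of all tested miRNAs, and whether the list differs from that share was not tested.

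The profile of the members was their mean level per tumour after centring each on its mean over the 6 arrays. It was 0.55, −0.44 and 1.08 in GLE tumours and −0.55, −0.64 and 0.0069 in model tumours. Of 383 other tested miRNAs, the 5 most like it over the 6 arrays were miR-511-3p, miR-146b-5p, miR-362-3p, miR-434-3p and miR-155-5p, with Pearson correlations of 0.998, 0.993, 0.990, 0.990 and 0.990. These are descriptions over 6 arrays that share the same scaling, and 2 to 4 of the 5 stayed among the nearest under other settings. Of the 5, miR-434-3p came near the lowest value kept after scaling (−4.25), at −4.00 in GLE replicate 2 and −4.06 in model replicate 2. For miR-146b-5p, 1 of the 2 probes was detected on 0 model arrays. miR-511-3p, the nearest, stood at −1.55, −2.86 and −0.80 in GLE tumours and at −2.82, −2.99 and −2.21 in model tumours, a difference of 0.94 ± 0.51 (limma adjusted p = 0.935). GLE replicate 2 fell among the model tumours in this miRNA too, and leaving out GLE replicate 3 gave 0.47 and leaving out GLE replicate 2 gave 1.50 (limma adjusted p = 0.996 and 0.0618).

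In the lists of markers of other cell types 0 miRNAs passed the test. The correlation of single markers with the profile of the members ran from −0.594 for miR-192-5p and −0.077 for miR-451a to 0.988 for miR-199a-3p. Among the 383 other miRNAs, miR-199a-3p ranked 8 in likeness, miR-126a-3p 59 (0.870), miR-1a-3p 175 (0.371), miR-451a 240 and miR-192-5p 309. The part of these markers in the result was not tested. The erythroid list had 2 tested members of 5, both negative. Its summed scaled signal ran from 2.90 to 10.67 in GLE and from 4.18 to 12.15 in model tumours. Such sums, here and for the lists below, are weighted to the brighter miRNAs and do not read a list evenly. The erythroid marker miR-451a, abundant in red cells, was at 3.36, 2.36 and 1.45 in GLE tumours and 2.42, 1.98 and 3.55 in model tumours, an order unlike that of the members. miR-199a-3p of fibroblasts stood at 0.76, −0.15 and 1.60 in GLE and −0.10, −0.44 and 0.32 in model tumours, the order of the members in the 3 highest tumours, with a difference of 0.81 ± 0.44 (limma adjusted p = 0.935). Leaving out GLE replicate 3 gave 0.37 and leaving out GLE replicate 2 gave 1.25 (limma adjusted p = 0.996 and 0.0683). Its list of fibroblast and smooth muscle miRNAs, all 6 tested, had 5 positive differences and a summed signal of 1.62 to 5.22 against 1.42 to 2.26. The endothelial miR-126a-3p, the tested one of 2 listed strands, was at 1.88, 1.52 and 2.00 in GLE and 1.44, 1.20 and 1.29 in model tumours, with no overlap, as in 4.64% of all tested miRNAs (0.49 ± 0.19; limma adjusted p = 0.935).

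Of the 5 hepatocyte markers 3 were tested. The defining one, miR-122-5p, was detected in 1 of 3 GLE tumours (replicate 2) and 1 of 3 model tumours (replicate 1), and miR-802-5p in 0 of 6. miR-192-5p was at −3.01, 0.26 and −3.46 in GLE and −1.64, −2.51 and −3.69 in model tumours, which places GLE replicate 2, where the blood-lineage members were low, above all other tumours. The list's summed signal ran from 0.55 to 2.61 in GLE and from 0.71 to 1.22 in model tumours. The muscle list, all 4 tested with 3 positive, was at 1.30 to 4.45 in GLE and 0.81 to 2.00 in model tumours, and miR-1a-3p was highest in GLE replicate 1 (0.33 against −1.57 and −1.60 in the other GLE tumours).

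Whether GLE replicate 2 overlapped the model tumours changed with the scaling between arrays. That array had the highest 75th percentile (364 units) and model replicate 1 the second highest (313 units), against 203 to 241 on the others. On unscaled signals miR-342-3p was at 914, 603 and 1652 units in GLE tumours and at 422, 325 and 463 units in model tumours. Without scaling the groups did not overlap in 4 of the 5 tested members, all but miR-142a-3p, where 24 of 388 miRNAs (6.19%) did not overlap in that direction. Limma then gave differences of 0.60 to 1.28 for the 5 members with an adjusted p of 0.997 for each. Under the other settings 0 of the 5 members lay apart. The share of all miRNAs that did was 4.9% with the percentile over all probes, 3.61% after quantile normalisation, 2.06% with the normexp background and 4.38% with outlier spots kept. It was 4.64% with the brightest probe, 4.87% over probes detected on all arrays, 1.22% with no filter and 5.07% in the authors' deposited table.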

How the data were processed

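The scanner files the authors deposited hold intensity values per spot on a linear scale, made with Agilent Feature Extraction 10.7.1.1 per the file headers and the submitters' processing notes, background-subtracted with a spatial trend removed and with no scaling between arrays. The authors also deposited a table of log2 values per miRNA, used as an alternative; the sources used here do not say how it was made. The miRNA total in the scanner files was not used, since its value for miR-342-5p is not its own.

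Control spots and outlier spots were left out (1401 to 1883 of 56430 per array), and each probe's remaining spots were averaged. A probe was detected when over a share of 0.5 of its spots were well above background. Arrays were divided by the 75th percentile over 636 probes detected on all arrays, floored at −4.25 (log2) and averaged over the probes of a miRNA that all 3 arrays of either group detected. Groups were compared with limma 3.58.1 in R 4.3.3 (lmFit and eBayes, two-sided, no block, threshold 0.05). The fit was also run on simulated data with independent noise for each miRNA, which does not cover deviations that miRNAs share within an array. Pairs of members were compared by exact permutation over 20 relabelings. The contrast of the miR-342 arms was not computed, as the 5p arm was not well above background on 4 arrays. The text names the 6 members, their other arms, 7 marker miRNAs listed by name and the 5 nearest miRNAs by Pearson correlation. Also named, outside that rule, are miR-21a-5p and miR-322-5p for their lack of overlap and miR-122-5p and miR-802-5p as untested hepatocyte markers. miR-181a-5p, miR-181b-5p and miR-503-5p are named too, as the members of the blood and immune list near or below 0. The members and lists were chosen with earlier results of these data known.

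Same-numbered arrays also shared a slide column. Their deviations from the group means correlated at −0.62, −0.18 and 0.375 for numbers 1, 2 and 3, so numbers were not taken as pairs. No date or slide block could be fitted with 1 slide and 1 scan.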

Additional observations from a re-analysis of the deposited data

How the results depend on the processing

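Each of the 5 tested members kept a positive difference in all 17 fits (10 sets of values, the replicate block and 6 leave-one-out fits). The differences ran from 0.31 to 0.74 for miR-142a-3p, 0.27 to 0.84 for miR-142a-5p, 0.32 to 1.30 for miR-150-5p, 0.42 to 1.38 for miR-223-3p and 0.76 to 1.79 for miR-342-3p. Leave-one-out fits called 0 to 1 member and 0 to 2 miRNAs overall. The exception was the fit without GLE replicate 2, which called miR-342-3p. With the replicate number as a block, 0 members passed (miR-342-3p 1.21, limma adjusted p = 0.887). Members with no overlap numbered 4 without scaling and 0 under the other settings.

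The near-zero contrasts had no stable sign. The arms of miR-142a gave 0.098 with quantile normalisation, 0.20 with normexp and 0.081 with the deposited table, and −0.10 to 0.050 with an array left out. miR-150-5p minus miR-223-3p gave −0.36 with normexp, −0.011 with the brightest probe, −0.14 with no filter and −0.0066 with the deposited table, and −0.081 to 0.071 with an array left out. miR-342-3p minus miR-223-3p stayed between 0.19 and 0.43. The cause of these changes was not tested. Among the 5 miRNAs nearest the members, 2 stayed with normexp, with the median over spots and with the deposited table, 3 with the brightest probe, and 2 to 3 with an array left out. With an array left out, miR-451a ran from −0.74 to 0.21, miR-192-5p from −0.62 to 1.24 and miR-1a-3p from −0.017 to 0.95. Signal over background limits miR-150-5p and miR-342-5p.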

Other observations

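The miRNA total that Feature Extraction wrote for miR-342-5p was not a sum over its own probes. On GLE replicates 1, 2 and 3 it was 524.05, 344.321 and 955.343, which exceeds the total of miR-342-3p on the same array by 2.58, 1.46 and 4.72, the total of the longest miR-342-5p probe alone (2.58, 1.46 and 4.72). On the 3 model arrays, where miR-342-3p totals were 185 to 266, the miR-342-5p total was 0.1.

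For miR-150-5p the total on model replicate 2 was 29.5 against 7.44 for the sum of its own probes, a ratio of 3.97, while on the other 5 arrays the ratio was 1.00. Among the 388 tested miRNAs, 74 (19.1%) had a total over 1.5 times the sum of their own probe totals on at least 1 array.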
